A study of Bos taurus with 29 samples.

Results

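The 10 genes described here make glutathione, recycle it and run the thioredoxin and glutaredoxin systems of the cattle oocyte. They were chosen by name: GCLC, GCLM, GSS and GSR for glutathione synthesis and reduction, TXN, TXN2, TXNRD1 and TXNRD2 for the thioredoxin system, and GLRX and GLRX2 for the glutaredoxins. All 10 had a row among the 13502 genes of the table, and all 10 were among the 11852 genes with at least 1 CPM (the reads of a gene scaled to a common library total) in at least 6 libraries.

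Glutathione is a small thiol peptide made in a pair of steps. Glutamate-cysteine ligase, a catalytic subunit (GCLC) with a modifier subunit (GCLM), joins glutamate to cysteine, and glutathione synthetase (GSS) adds glycine. Glutathione reductase (GSR) and the thioredoxin reductases (TXNRD1 in the cytosol, TXNRD2 in mitochondria) use NADPH to keep glutathione and the thioredoxins (TXN in the cytosol, TXN2 in mitochondria) reduced, and glutaredoxins (GLRX, mainly cytosolic, and GLRX2, mainly mitochondrial) use glutathione to remove mixed disulfides from proteins. In mammalian eggs glutathione builds up during maturation and serves, after fertilisation, to open the disulfide bonds of the sperm nucleus.

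Each library was a single wild-type oocyte from follicles of FSH-treated donor cattle. CNP_IVM oocytes (7 in the table) spent 6 h in a pre-maturation medium with CNP (C-type natriuretic peptide, a signal from granulosa cells that keeps oocytes in meiotic arrest) at 200 nM and were then matured for 22 h. IVM oocytes (8) were matured for 22 h without that step, and GV oocytes (7), still at the germinal vesicle stage, were denuded when collected. Maturation media held serum, EGF and FSH, the pre-maturation medium lacked EGF, and both matured groups were taken as metaphase II (MII) eggs by their polar body. A further 7 labelled oocytes were not analysed here. The effect of CNP and that of the longer culture (28 h in all) cannot be told apart, since no group had the extra 6 h alone.

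Neither donors nor cultures are given per oocyte, so each group counted as 1 sample, no test was possible over animals and no p-value is given. Ranges and SDs below are between oocytes. A difference is that of log2(mean CPM + 1) between groups. The pseudocount of 1 CPM understates the differences of low genes, and a gene is called higher or lower from 2-fold on that scale. Values are shares of a library primed on poly(A): the amount of a transcript, the state of its tail and the make-up of the rest of the library cannot be told apart. CPM does not account for transcript length, so each gene is compared with itself across groups and never with another gene.

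Libraries held 20159662 to 39340040 reads. Oocyte markers (15 of 15 in the table) summed to 37566 to 52277 CPM in CNP_IVM, 31757 to 47212 CPM in IVM and 27208 to 32287 CPM in GV oocytes. Cumulus and granulosa markers (19 of 25 in the table) summed to 274 to 360.1 CPM, 416 to 724 CPM and 693 to 1246 CPM in CNP_IVM, IVM and GV oocytes, with STAR, a steroid synthesis gene, at a mean of 93.9, 316 and 657 CPM of these sums. Cumulus expansion genes of the same list were higher after maturation: HAS2 averaged 118 CPM in CNP_IVM, 77.1 CPM in IVM and 16.3 CPM in GV oocytes, and PTGS2 37.6, 38.0 and 13.4 CPM. The gonadotropin receptor gene FSHR averaged 0.0714 CPM in CNP_IVM, 0.0864 CPM in IVM and 0.275 CPM in GV oocytes, and the granulosa enzyme gene CYP11A1 was under 1 CPM in the mean of each group. Others of the list were well above 0 in GV oocytes: SERPINE2 averaged 10.7, 55.0 and 68.7 CPM in the same order of groups. CD44 averaged 1.96, 3.30 and 23.9 CPM, and INHA 0.358, 0.723 and 15.7 CPM. Blood and immune markers (7 of 16 in the table) summed to 4.11 to 25.8 CPM, 8.56 to 47.6 CPM and 175 to 364 CPM in the same groups, most of it VWF, and the macrophage marker CD68 was at 0 in every CNP_IVM oocyte. CD3E, of the blood and immune list, averaged 1.27 CPM in CNP_IVM, 3.55 CPM in IVM and 29.4 CPM in GV oocytes. The marker sums move with stage as several of the 10 genes do, and their part in the results was not tested. GV replicate 9, grouped by its title, is the one GV oocyte whose treatment is labelled in vitro maturation. It had 9381 genes at 1 CPM or more, against 11311 to 11798 in the other GV oocytes, and results that rest on it are given with and without it.

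In IVM against GV oocytes, 2 of the 10 genes were at least 2-fold higher (GSR and TXNRD1), where 15.9% of all genes were, and 3 were at least 2-fold lower (TXN2, TXNRD2 and GLRX2), where 33.0% of all genes were. In CNP_IVM against GV oocytes, 1 was higher (GSR; background 15.3%) and 5 were lower (GSS, TXN, TXN2, TXNRD2 and GLRX2; background 42.0%). Both sets of counts lie near the background and say little of the genes as a group. In CNP_IVM against IVM oocytes, 1 was higher (GLRX), where only 1.86% of all genes were, 2 were lower (GSS and TXNRD2), where 14.8% were, and 7 lay within 2-fold. No gene of the 10 separated all CNP_IVM from all IVM oocytes, where 1.38% of all genes did so upward and 2.60% downward. The median log2 difference of the 10 genes was -0.81 between CNP_IVM and IVM oocytes (all genes -0.28), -1.24 between CNP_IVM and GV oocytes (all genes -0.61) and -0.91 between IVM and GV oocytes (all genes -0.28). Any 2 of the 3 comparisons share a group, so their values are not independent.

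**Figure D1:**
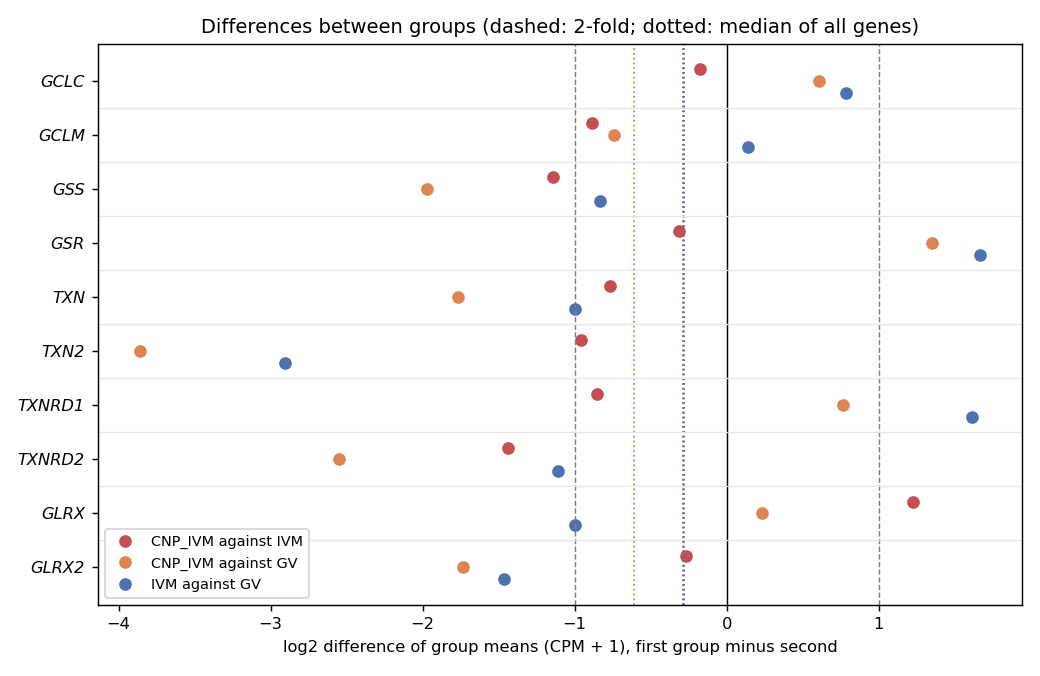
Log2 difference of group means (CPM + 1) for each of the 10 genes, first-named group minus second, in 3 comparisons; dashed lines mark 2-fold and dotted lines the median of all genes. GLRX stands alone to the right in CNP_IVM against IVM (log2 1.22 on the axis), GSR lies right of 2-fold against GV in both matured groups, and TXN2 lies farthest left (-3.86 in CNP_IVM and -2.90 in IVM, against GV).

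Of the synthesis genes, GSS was the one at least 2-fold lower in CNP_IVM than in GV or IVM oocytes. GSS was at 1.53 to 11.9 CPM in CNP_IVM oocytes (median 2.93), 4.97 to 15.7 CPM in IVM oocytes (median 11.4) and 8.91 to 55.3 CPM in GV oocytes (median 14.1). In 6 of 7 CNP_IVM oocytes it lay below every GV oocyte and in 5 of 7 below every IVM oocyte. Replicate 1, at 11.9 CPM, was the exception in both, and replicate 5, at 5.05 CPM, lay just above the lowest IVM oocyte. Its mean was 4.27 ± 3.62 CPM in CNP_IVM against 10.6 ± 4.16 CPM in IVM oocytes (SD, n = 7 and 8), a log2 difference of -1.14 that was inside 2-fold with TMM factors (-0.88), quantile normalization (-0.70) and a pseudocount of 5 CPM (-0.75). Against GV oocytes (19.7 ± 15.99 CPM, SD, n = 7) the log2 difference was -1.97 in CNP_IVM and -0.83 in IVM. GV replicate 9 carried the highest value by far: without it the GV range was 8.91 to 17.9 CPM and the differences were -1.48 and -0.34. With quantile normalization the difference of CNP_IVM from GV was -1.02.

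GCLC, which carries the catalytic site of the first step, lay higher in matured oocytes, with overlap and less than 2-fold. Its levels were 17.7 to 60.9 CPM in CNP_IVM (median 39.2), 22.8 to 74.3 CPM in IVM (median 38.6) and 17.6 to 45.0 CPM in GV oocytes (median 22.1). The 6 GV oocytes other than replicate 9 lay between 17.6 and 24.7 CPM, a narrower spread than in either matured group. Its log2 difference from GV was 0.61 in CNP_IVM and 0.79 in IVM (0.82 and 0.999 without GV replicate 9), and with TMM factors it passed 2-fold in both (1.17 and 1.03). Between the matured groups the log2 difference was -0.18, and it turned to 0.14 with TMM factors and 0.08 with quantile normalization, so no direction is given for it.

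GCLM, whose product lowers the substrate need of the ligase and its inhibition by glutathione, did not follow its partner. It was at 2.54 to 11.8 CPM in CNP_IVM (median 8.54), 6.90 to 24.2 CPM in IVM (median 15.9) and 8.88 to 22.3 CPM in GV oocytes (median 12.6). In 6 of 8 IVM oocytes GCLM was above every CNP_IVM oocyte, and IVM and GV oocytes shared most of their range. Its log2 difference was -0.88 in CNP_IVM against IVM (at 2-fold, -1.0001, without CNP_IVM replicate 5), 0.14 in IVM against GV and -0.74 in CNP_IVM against GV, the last of which turned to 0.25 with quantile normalization. The first of these was -0.64 with TMM factors and -0.46 with quantile normalization.

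GSR, which turns oxidised glutathione back to its reduced form, was higher in every matured oocyte than in any GV oocyte. It was at 74.5 to 129 CPM in CNP_IVM (median 103), 85.8 to 170.4 CPM in IVM (median 124) and 25.2 to 55.0 CPM in GV oocytes (median 38.7). No oocyte of either matured group came within the GV range. Such a full separation upward was seen in 11.5% of all genes for IVM against GV and in 12.9% for CNP_IVM against GV. Summed over oocytes, GSR was at 102 CPM (95% exact Poisson interval 101 to 103) in CNP_IVM, 129.6 CPM (128 to 131) in IVM oocytes and 39.9 CPM (39.1 to 40.8) in GV oocytes, where the intervals cover the counting of reads only. The log2 difference from GV was 1.35 in CNP_IVM and 1.67 in IVM, and 95.6% of all genes had a lower difference than GSR in IVM against GV. Its coefficient of variation was 18.5%, 23.8% and 23.2% in CNP_IVM, IVM and GV oocytes, so GSR was also among the steadier of the 10 genes between oocytes. The matured groups overlapped (log2 difference -0.32).

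**Figure D2:**
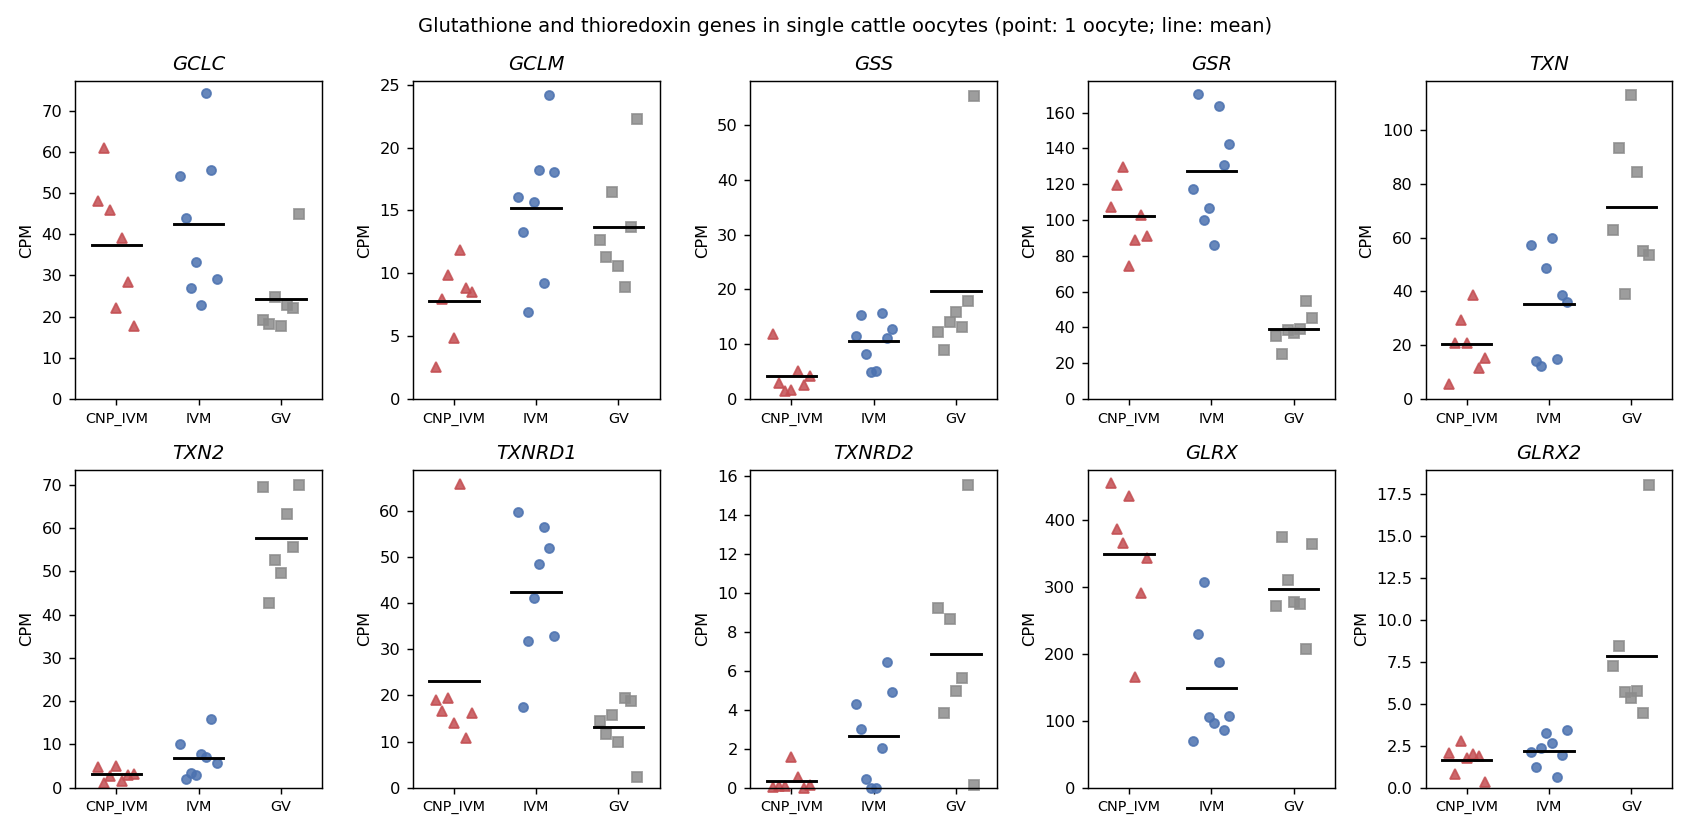
CPM of each of the 10 genes by group (points are oocytes, lines are means; each panel has its own axis starting at 0). GSR lies at 74.5 CPM or more in every matured oocyte and at 55.0 CPM or less in every GV oocyte, TXN2 at 15.9 CPM or less after maturation and at 42.8 CPM or more before it, and GLRX in IVM oocytes falls into a low and a higher set of points.

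With the pseudocount of 1 CPM, the mitochondrial thioredoxin TXN2 had the largest difference of the 10 genes between either matured group and GV oocytes. In CNP_IVM against GV this order depends on the pseudocount, which understates the low gene TXNRD2. With 0.1 CPM, TXN2 was at -4.20 and TXNRD2 at -3.97. TXN2 was at 1.15 to 5.06 CPM in CNP_IVM (median 3.02), 1.95 to 15.9 CPM in IVM (median 6.36) and 42.8 to 70.1 CPM in GV oocytes (median 55.7). Every matured oocyte lay below every GV oocyte, a separation seen in 28.0% of all genes for CNP_IVM and 19.9% for IVM. The log2 difference from GV was -3.86 in CNP_IVM and -2.90 in IVM, with 4.90% and 6.16% of all genes lower still. Between the matured groups it was -0.96 (past 2-fold, -1.15 to -1.05, with a pseudocount of 0.1 CPM and without CNP_IVM replicate 1 or 4 or IVM replicate 3, 5 or 6), with overlap: 5 of 8 IVM oocytes were above every CNP_IVM oocyte. This difference was -0.67 with TMM factors, -0.56 with a pseudocount of 5 CPM and -0.41 with quantile normalization.

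TXN, the cytosolic thioredoxin and electron donor to ribonucleotide reductase and peroxiredoxins, was also lower after maturation but by less. It was at 5.55 to 38.7 CPM in CNP_IVM (median 20.9), 12.4 to 59.97 CPM in IVM (median 37.5) and 39.2 to 113 CPM in GV oocytes (median 62.7). All 7 CNP_IVM oocytes lay below all GV oocytes, the nearest pair being 38.7 and 39.2 CPM, while 3 of 8 IVM oocytes lay within the GV range. A full separation downward was seen in 28.0% of all genes for CNP_IVM against GV. The log2 difference from GV was -1.76 in CNP_IVM and -0.997 in IVM. The value for IVM is just inside 2-fold, and it passed 2-fold without IVM replicate 1, 6, 7, 9 or 10 or GV replicate 1, 3, 7 or 9 (-1.14 to -1.002). It was smaller with TMM factors (-0.73), quantile normalization (-0.75) and medians (-0.73). In CNP_IVM against IVM it was -0.77.

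The cytosolic reductase gene TXNRD1, a selenoprotein, was higher in IVM than in GV oocytes, opposite to both thioredoxins. It was at 10.7 to 65.8 CPM in CNP_IVM (median 16.7), 17.4 to 59.8 CPM in IVM (median 44.8) and 2.26 to 19.4 CPM in GV oocytes (median 14.5). In 7 of 8 IVM oocytes it exceeded every GV oocyte. The log2 difference was 1.615 in IVM against GV (1.44 without GV replicate 9), higher than in 94.9% of all genes. In CNP_IVM oocytes 6 values lay between 10.7 and 19.4 CPM, close to GV, and replicate 5 stood apart at 65.8 CPM, so the mean (23.2 ± 19.05 CPM, SD, n = 7) describes neither. The log2 difference of CNP_IVM from IVM was -0.85 with that oocyte and -1.35 without it, past 2-fold, and from GV it was 0.77 with it, 0.26 without it and 1.26 with TMM factors. The difference from IVM was -1.37 with medians, -0.58 with TMM factors and -0.55 with quantile normalization.

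TXNRD2, the mitochondrial reductase, had few or no reads in several oocytes. It had 0 to 61 reads in a CNP_IVM oocyte, 0 to 234 in an IVM oocyte and 5 to 532 in a GV oocyte. That is 0 to 1.57 CPM in CNP_IVM (median 0.0785), 0 to 6.43 CPM in IVM (median 2.52) and 0.136 to 15.6 CPM in GV oocytes (median 5.66). At or under 3 reads lay 4 of 7 CNP_IVM, 2 of 8 IVM and none of the GV oocytes, and a count of 0 allows up to 0.0788 CPM in CNP_IVM replicate 6, 0.0810 CPM in IVM replicate 6 and 0.149 CPM in IVM replicate 7. Read together over oocytes, TXNRD2 was at 0.346 CPM (0.279 to 0.425) in CNP_IVM oocytes, 2.84 CPM (2.64 to 3.05) in IVM oocytes and 6.86 CPM (6.52 to 7.21) in GV oocytes (95% Poisson intervals, exact, counting error only). The log2 difference was -1.44 in CNP_IVM against IVM, -2.55 in CNP_IVM against GV and -1.11 in IVM against GV. These values depend on the settings: with pseudocounts of 5 and 0.1 CPM they were -0.52 and -2.63, -1.15 and -3.97, and -0.63 and -1.34 in that order. The call in CNP_IVM against IVM also ended with quantile normalization (-0.96), and that in IVM against GV with TMM factors, quantile normalization or medians (-0.97 to -0.64) and without IVM replicate 5, 6 or 7 or GV replicate 7 (-0.99 to -0.81). GV replicate 9 was at 0.136 CPM where the other 6 GV oocytes were at 3.84 CPM or more, and without it every CNP_IVM oocyte lay below every GV oocyte. With all GV oocytes kept, 28.0% of all genes separated in that way.

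GLRX, the cytosolic glutaredoxin, was the one gene of the 10 at least 2-fold higher in CNP_IVM than in IVM oocytes. It was at 164 to 455 CPM in CNP_IVM (median 365), 69.5 to 308 CPM in IVM (median 106) and 207 to 374 CPM in GV oocytes (median 278). In 5 of 7 CNP_IVM oocytes GLRX exceeded every IVM oocyte, and 5 of 8 IVM oocytes lay below every CNP_IVM oocyte. The mean was 348 ± 98.2 CPM in CNP_IVM (SD, n = 7) against 149 ± 84.6 CPM in IVM oocytes (SD, n = 8), a log2 difference of 1.22. Of all genes, 0.650% had a larger difference in this direction. GV oocytes (297 ± 58.4 CPM, SD, n = 7) shared most of the CNP_IVM range (log2 difference 0.23). IVM oocytes were lower than GV by a log2 difference of -0.99, with 6 of 8 below every GV oocyte. That difference sits at the 2-fold line and passed it without IVM replicate 3, 5 or 8 or GV replicate 1, 4, 6 or 7 (-1.23 to -1.01). With medians in place of means it was -1.38, and with TMM factors -0.67. IVM oocytes fell into a set of 5 at 69.5 to 107 CPM and 3 at 188 to 308 CPM, and the mean lies between them.

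GLRX2, the mainly mitochondrial glutaredoxin, was low after maturation in both groups. It was at 0.336 to 2.79 CPM in CNP_IVM (median 1.86), 0.610 to 3.43 CPM in IVM (median 2.22) and 4.44 to 18.04 CPM in GV oocytes (median 5.78). Every matured oocyte was below every GV oocyte, with or without GV replicate 9. With all oocytes kept, 28.0% of all genes separated downward in this way for CNP_IVM and 19.9% for IVM. The log2 difference from GV was -1.73 in CNP_IVM and -1.47 in IVM (-1.42 and -1.16 without that oocyte), and the matured groups differed by -0.26. Both calls against GV ended with a pseudocount of 5 CPM (-0.95 in CNP_IVM and -0.84 in IVM) and with quantile normalization (-0.65 and -0.63). RefSeq's annotation of ARS-UCD2.0, a cattle assembly, places RHOBTB3 over GLRX and RO60 over GLRX2. How reads in such overlaps were assigned is not given in the sources used here. RHOBTB3 averaged 3.19, 5.64 and 5.31 CPM, and RO60 5.90, 10.4 and 4.50 CPM, in CNP_IVM, IVM and GV oocytes. The part of these overlaps in the values of GLRX and GLRX2 was not tested. TXN and TXNRD1 also overlap a gene each (LOC132346006 and EID3), not used here, and the library kit is not stated to mark strand.

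Paired genes were also set against each other within each oocyte, where library scaling cancels apart from the pseudocount. The log2 ratio of TXNRD2 to TXNRD1 was -5.43 to -2.56 in CNP_IVM (median -4.03), -5.63 to -2.20 in IVM (median -3.88) and -1.61 to -0.26 in GV oocytes (median -0.89). All 15 matured oocytes thus lay below all GV oocytes with pseudocounts of 1 and 5 CPM. With 0.1 CPM GV replicate 9, which had 5 reads of TXNRD2 and 83 of TXNRD1, was at -3.32. At that pseudocount 1 of 7 CNP_IVM and 3 of 8 IVM oocytes lay above it. Without that oocyte all matured oocytes were below all GV oocytes at each pseudocount. The difference of medians for CNP_IVM against GV (-3.14) was -1.50 with 5 CPM and -5.67 with 0.1 CPM. For CNP_IVM against IVM (-0.15) it was 0.69 with 5 CPM and -2.43 with 0.1 CPM. The nearness of the matured medians thus depends on the pseudocount, and no direction is given for it. For TXN2 over TXN the medians were -1.96 in CNP_IVM, -2.37 in IVM and 0.02 in GV oocytes, with 6 of 7 CNP_IVM and 7 of 8 IVM oocytes below all GV oocytes. With a pseudocount of 5 CPM, 5 of 7 CNP_IVM and 5 of 8 IVM oocytes were. The ratio of GCLC to GCLM had medians of 1.99 in CNP_IVM, 1.41 in IVM and 0.65 in GV oocytes. It lay above every GV oocyte in 6 of 7 CNP_IVM and 4 of 8 IVM oocytes, and spread far more widely after maturation, with an SD of 0.92 in CNP_IVM and 0.80 in IVM against 0.26 in GV. The ratio of GLRX2 to GLRX was -8.01 to -5.78 in CNP_IVM (median -7.22), below all GV oocytes (-5.54 to -4.26, median -5.31); with a pseudocount of 5 CPM, 6 of 7 were. Of the IVM oocytes (-6.88 to -4.50, median -4.80), 3 lay below the GV range and 5 within it, but without GV replicate 9, the highest GV oocyte, those 5 lay above every GV oocyte (at most -5.05).

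**Figure D3:**
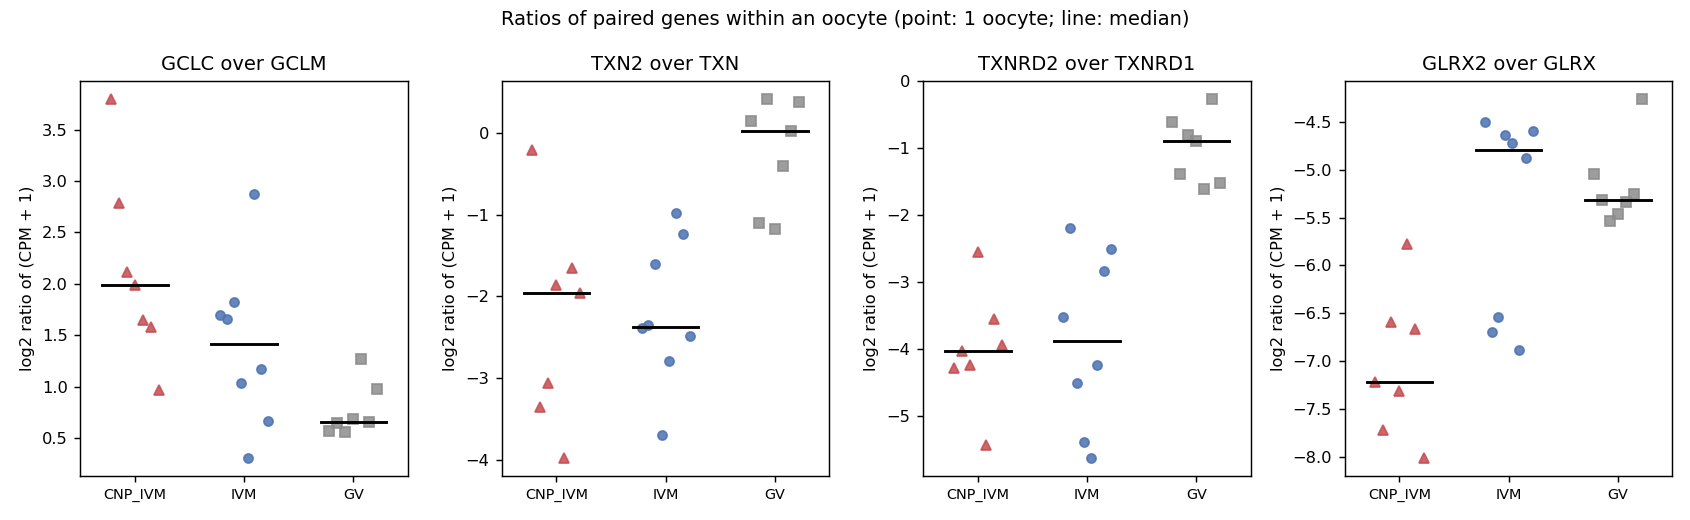
Log2 ratio of (CPM + 1) of paired genes within each oocyte, by group; points are oocytes, lines are medians, and each panel has its own axis. TXNRD2 over TXNRD1 lies at -2.20 or lower in every matured oocyte and at -1.61 or higher in every GV oocyte at this pseudocount (with 0.1 CPM, GV replicate 9 is at -3.32 and the groups overlap), and all CNP_IVM oocytes lie below all GV oocytes for GLRX2 over GLRX.

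Among oocytes of 1 group the genes did not vary alike. The 3 IVM oocytes with the least TXN (replicates 3, 5 and 8, at 14.1, 12.4 and 14.9 CPM) were the 3 with the most GLRX (229, 308 and 188 CPM) and the 3 with the least GCLM (13.3, 6.90 and 9.25 CPM). The other 5 IVM oocytes had 36.1 to 59.97 CPM of TXN and 69.5 to 107 CPM of GLRX. In CNP_IVM oocytes the opposite order of TXN and GLRX rested on the ends of the group. Replicate 1 had the least TXN (5.55 CPM), the least GCLM (2.54 CPM) and the most GLRX (455 CPM) of its group. Replicate 5 had the most TXN (38.7 CPM), the most GCLM (11.8 CPM), the most TXNRD1 (65.8 CPM) and the least GLRX (164 CPM). Between these ends the opposite order did not hold. Replicate 6 had less TXN and also less GLRX (290 CPM) than replicates 2, 3, 4 and 7. Replicate 4 had more of both genes than replicates 6 and 7. Replicate 3 did run opposite, with more TXN and less GLRX than replicates 2 and 4. GV oocytes showed no opposite order of TXN and GLRX. Their GLRX was 374 and 278 CPM in the 2 oocytes with the most TXN (93.2 and 113 CPM). It was 310.2 CPM in the one with the least TXN (39.2 CPM). The 3 IVM oocytes were not alike in depth or in cell markers, with 29199886, 29135792 and 39340040 reads and cumulus and granulosa sums of 574, 443 and 724 CPM, within the range of the other 5 (20159662 to 37398622 reads and 416 to 708 CPM) but for the third.

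**Figure D4:**
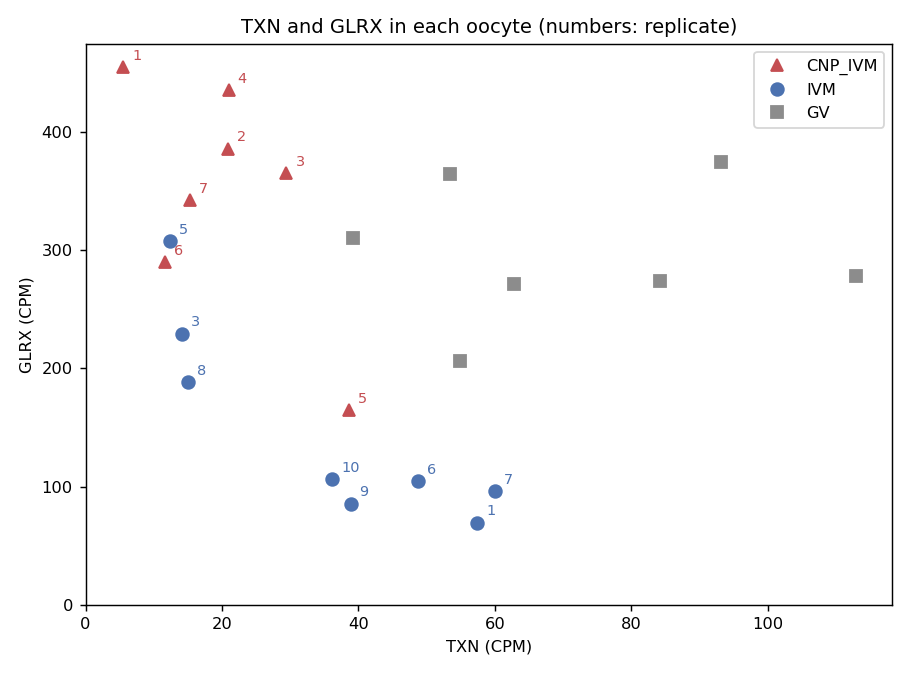
GLRX against TXN, both in CPM, for each oocyte; numbers are replicate numbers of CNP_IVM and IVM oocytes. IVM replicates 3, 5 and 8 lie at the left, under 15 CPM of TXN and at 188 CPM of GLRX or more. CNP_IVM replicates 1 and 6 are also under 15 CPM of TXN, at 455 and 290 CPM of GLRX. CNP_IVM replicate 5 lies lower right of its group at 38.7 CPM of TXN and 164 CPM of GLRX.

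Other genes of the same pathways gave the context. The counts below stand beside the shares of all genes: 1.86% higher and 14.8% lower in CNP_IVM against IVM, 15.3% higher and 42.0% lower in CNP_IVM against GV, and 15.9% higher and 33.0% lower in IVM against GV. With lists of 9 to 22 genes, 1 or 2 genes move a share by many percentage points, and nothing is read from the lists as groups. Cysteine and glutamate supply (13 genes past the filter) had 0 genes at least 2-fold higher and 2 lower in CNP_IVM against IVM, 2 higher and 6 lower in CNP_IVM against GV, and 3 higher and 4 lower in IVM against GV. CTH, which makes cysteine from cystathionine, averaged 80.02 CPM in CNP_IVM and 128 CPM in IVM against 32.5 CPM in GV oocytes, while AHCY, a step of the methionine cycle, averaged 3.08 CPM in CNP_IVM and 6.74 CPM in IVM against 36.7 CPM in GV, where GV replicate 9 was at 122 CPM. The log2 differences of AHCY were -3.21 and -2.28 with that oocyte and -2.52 and -1.60 without it. SLC3A2, a heavy chain used by the cystine transporter, averaged 152 CPM (102 to 237) in CNP_IVM against 364 CPM (165 to 566) in IVM, with overlap. Cystine transport was not measured. CBS, the other transsulfuration enzyme, averaged 1.01 CPM in CNP_IVM and 3.06 CPM in IVM against 31.97 CPM in GV, a mean raised by GV replicate 9: the log2 differences of CNP_IVM and IVM from GV were -4.04 and -3.02 with it and -2.81 and -1.79 without it. By group means, CTH was thus above and CBS below its GV level in both matured groups. The ranges of CTH overlapped in CNP_IVM against GV (33.9 to 124 against 18.4 to 52.3 CPM). Those of CBS overlapped in IVM against GV (0.397 to 9.92 against 6.34 to 146 CPM).

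Glutathione breakdown and export (14 genes) had 0 higher and 3 lower in CNP_IVM against IVM, 2 higher and 7 lower in CNP_IVM against GV, and 2 higher and 7 lower in IVM against GV. The paired mitochondrial glutathione carriers SLC25A39 and SLC25A40 differed in direction: SLC25A39 averaged 2.27 CPM in CNP_IVM and 5.80 CPM in IVM against 62.01 CPM in GV, and SLC25A40 19.4 and 24.9 CPM against 7.23 CPM, each with every matured oocyte on one side of every GV oocyte. CHAC1, which degrades glutathione, averaged 2.86 CPM in CNP_IVM against 13.5 CPM in IVM and 75.6 CPM in GV oocytes, with log2 differences of CNP_IVM and IVM from GV of -4.31 and -2.40 (-3.76 and -1.85 without GV replicate 9). Glutathione transferases and glyoxalases (17 genes) had 0 higher and 1 lower in CNP_IVM against IVM, 4 higher and 11 lower in CNP_IVM against GV, and 3 higher and 9 lower in IVM against GV. GSTM1 and GSTM2 had the same mean and range in each group (8.39 CPM in CNP_IVM against 19.4 CPM in GV). Both are among the 11 lower genes, so 1 measurement may be counted there as 2 genes. HAGH, glyoxalase 2, was the one lower in CNP_IVM against IVM, at 2.95 CPM in CNP_IVM oocytes (0.870 to 3.904) against 12.1 CPM in IVM oocytes (3.95 to 28.0), with no overlap. Of all genes, 2.60% separated downward in this way.

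NADPH supply (19 genes) had 0 higher and 4 lower in CNP_IVM against IVM, 4 higher and 10 lower in CNP_IVM against GV, and 5 higher and 5 lower in IVM against GV. Its median log2 difference was -0.69, -1.04 and 0.10 in that order, beside -0.28, -0.61 and -0.28 for all genes. The pentose phosphate enzymes TALDO1 (11.4 CPM in CNP_IVM against 231 CPM in GV) and PGLS (7.19 against 149 CPM) were low, and the folate enzyme MTHFD1 was high in IVM (785 CPM against 214 CPM in GV). Mitochondrial NAD kinase, NADK2, averaged 227 CPM in CNP_IVM against 78.8 CPM in GV. The cytosolic kinase NADK averaged 1.36 CPM in CNP_IVM against 12.5 CPM in IVM, whose highest oocyte was at 55.1 CPM.

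Regulators and targets of NRF2, the transcription factor that governs GCLC, GCLM and TXNRD1 in many cells (16 genes), had 1 higher and 2 lower in CNP_IVM against IVM, 2 higher and 6 lower in CNP_IVM against GV, and 2 higher and 5 lower in IVM against GV. KEAP1, the NRF2 inhibitor, averaged 7.74 CPM (0.280 to 11.6) in CNP_IVM against 24.8 CPM (5.83 to 68.7) in IVM. UGDH averaged 50.9 CPM in CNP_IVM and 62.0 CPM in IVM against 11.7 CPM in GV oocytes. Selenoprotein synthesis genes (9) had 0 higher and 1 lower in CNP_IVM against IVM, 3 higher and 3 lower in CNP_IVM against GV, and 4 higher and 3 lower in IVM against GV. SEPSECS, which forms selenocysteine on its transfer RNA, averaged 64.3 CPM in CNP_IVM and 80.7 CPM in IVM against 22.6 CPM in GV, while SCLY, which recycles selenium, averaged 1.19 and 5.34 against 66.01 CPM.

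Other thioredoxin fold proteins (22 genes) had 0 higher and 5 lower in CNP_IVM against IVM, 3 higher and 10 lower in CNP_IVM against GV, and 4 higher and 5 lower in IVM against GV. TXNDC9 averaged 1007 CPM in CNP_IVM against 344 CPM in GV oocytes, NXN (nucleoredoxin) 3.52 against 60.8 CPM. TXNDC12, a thioredoxin-like protein of the endoplasmic reticulum, averaged 11.4 CPM (6.01 to 28.2) in CNP_IVM against 33.4 CPM (20.9 to 40.2) in IVM. Enzymes that draw on thioredoxin or glutathione (16 genes) had 0 higher and 2 lower in CNP_IVM against IVM, 1 higher and 8 lower in CNP_IVM against GV, and 2 higher and 7 lower in IVM against GV. RRM1, the large subunit of ribonucleotide reductase, averaged 232 CPM in CNP_IVM and 331 CPM in IVM against 72.6 CPM in GV, PRDX2 324 CPM in CNP_IVM against 6334 CPM in GV. PRDX4, the peroxiredoxin of the endoplasmic reticulum, averaged 32.9 CPM (21.3 to 44.8) in CNP_IVM against 75.4 CPM (46.5 to 126) in IVM, with no overlap. The same separation downward was seen in 2.60% of all genes.

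**Figure D5:**
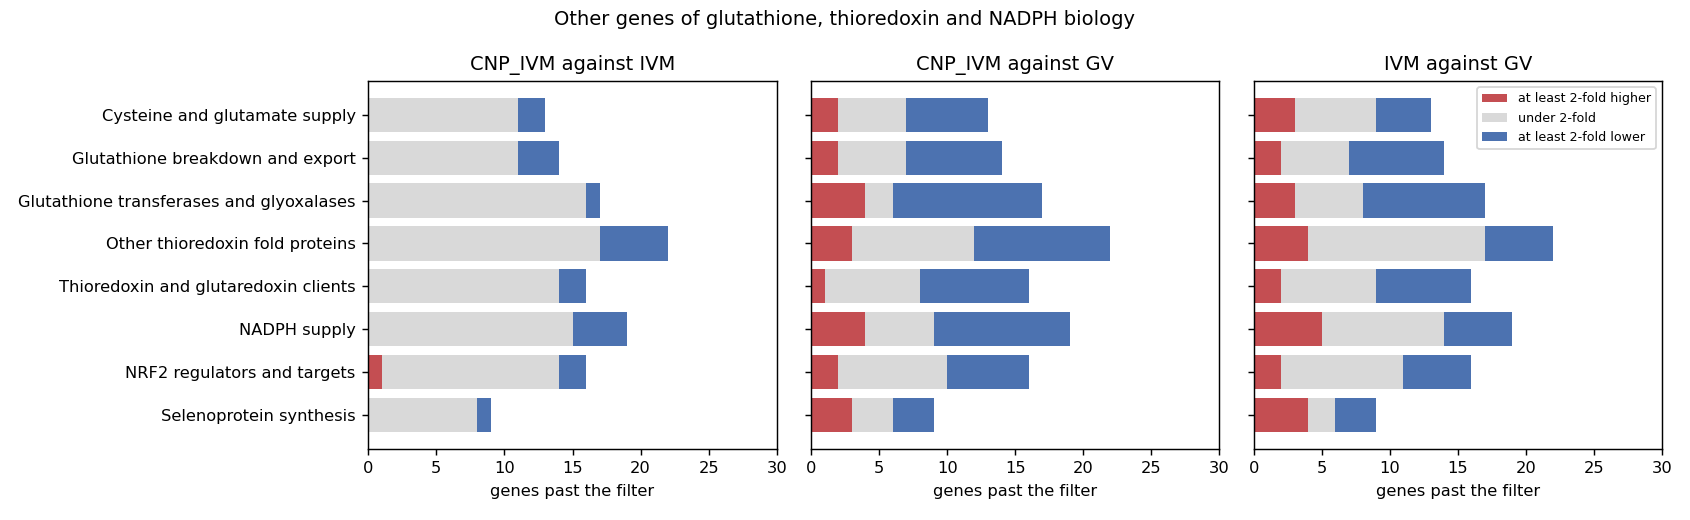
Number of genes past the filter at least 2-fold higher, within 2-fold and at least 2-fold lower, for 8 lists of related genes in 3 comparisons, on 1 common axis. In CNP_IVM against IVM most genes of every list lie within 2-fold and 1 gene in all (NFE2L1, of the NRF2 list) is higher.

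For the 8 members with a mean of at least 10 CPM in a group, the most similar genes were found by the root mean square distance between log2(CPM + 1) profiles over all 22 oocytes, each centred on its own mean, among 8242 other genes. GSR lay nearest to CDCA7 (distance 0.25, with 0.78 for the spread of GSR itself), NPTN and HMGN4. TXN2 lay nearest to ARPC5L (0.40 against its own spread of 1.75), CZIB and NSFL1C. GLRX lay nearest to POLR2H (0.39 against 0.80), an RNA polymerase subunit gene that averaged 431 CPM in CNP_IVM, 166 CPM in IVM and 246 CPM in GV oocytes, then to MEGF11 and ATP13A5. TXN lay nearest to NDUFS4 (0.46 against 1.06), TXNRD1 to STON1 (0.41 against 1.01), GCLC to NABP1 (0.25 against 0.61), GCLM to CDC123 (0.35 against 0.64) and GSS to C26H10orf90 (0.50 against 1.05). TXNRD2 and GLRX2 were too low for this comparison, and none of the 10 genes was among the 3 nearest of any of the 8 members compared.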

How the data were processed

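Messenger RNA of single oocytes was sequenced after SMART-Seq v4 amplification and Nextera XT library preparation, as 150-bp pairs on a HiSeq X, per the labels' protocols. Tools listed in the submitters' processing notes, without role or order, are HISAT2 2.2.1, featureCounts 2.0.1, edgeR, Trim Galore 0.6.7 and FastQC, and the build listed is GRCm39, a mouse assembly. The genes carry cattle symbols, and all 10 members are symbols of ARS-UCD2.0, so no coordinates are given. The authors deposited 1 table named for TPM, whose values are CPM: 100% are whole multiples of 1 step per library, the same for every gene (tolerance 0.01 read). Reads were recovered from those steps, and 97.1 to 97.6% of each library lay in listed genes. No count test was run on them, because groups count as 1 sample each. The columns of 22 of 29 samples were matched through the labels, groups come from titles, and 0 columns were left over. No pair of libraries in a group was a copy (chi-square per degree of freedom at least 37.95, over genes with 20 or more reads in the pair).

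Computed here, with Python 3.11.15, pandas 2.3.3, scipy 1.17.1 and, for TMM factors only, edgeR 4.0.16 in R 4.3.3: group means, log2 differences (pseudocount 1 CPM), counts past 2-fold among genes with 1 CPM in 6 libraries, and Poisson intervals (95%). The script was tested on simulated reads with known fold changes. All members are named. Of each related list, the rule took up to 2 genes per direction with the largest differences, past 2-fold and at 10 CPM in either group, and those in the text were picked from them after their values were seen. Promoter and protein sequences were not used here. The members and lists were chosen with earlier results of these data known. Alternatives were pseudocounts of 0.1 and 5 CPM, no filter, TMM factors, quantile normalization, medians in place of means, leaving out GV replicate 9 and, added after seeing the data, leaving out every other library and varying the ratios.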

Additional observations from a re-analysis of the deposited data

Results flagged for a closer look

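Values were marked where the gap between an extreme oocyte and the next exceeded Dixon's 95% critical share of the group's range. Of 42 groups of values (10 genes and 4 ratios in 3 groups), 7 were marked, and 4 of the 7 were GV replicate 9. Chance marks about 1 in 20 of independent, normally distributed groups. The ratios reuse the same genes and CPM need not be normal, so the count is not set against that rate. The marks of GV replicate 9 on GLRX2 and on GLRX2 over GLRX share a gene.

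GV replicate 9 had 45.0 CPM of GCLC (next oocyte 24.7), 55.3 CPM of GSS (next 17.9) and 18.04 CPM of GLRX2 (next 8.44), and a log2 ratio of GLRX2 to GLRX of -4.26 (next -5.05). It also had the highest cumulus and granulosa marker sum of the GV oocytes, 1246 CPM, against 693 to 1002 CPM in the other 6; the part of these markers in its values was not tested. CNP_IVM replicate 5 had 65.8 CPM of TXNRD1 (next 19.4), with the highest cumulus and granulosa sum of its group, 360.1 CPM, against 274 to 335 CPM. CNP_IVM replicate 1 had 11.9 CPM of GSS (next 5.05). CNP_IVM replicate 4 had 1.57 CPM of TXNRD2 (next 0.545), which rests on 61 reads.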

How the results depend on the processing

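The differences of GSR from GV in both matured groups, of TXN2 from GV in both, and of GLRX in CNP_IVM against IVM (1.12 to 1.78) kept their direction and stayed past 2-fold under every alternative run. The count of genes at least 2-fold lower in IVM against GV, 3 as reported, was 1 with a pseudocount of 5 CPM and 1 with quantile normalization. It was 3 to 5 when 1 library was left out (5 without GV replicate 1, which adds TXN and GLRX). TMM factors took TXNRD2 (-0.97) out of these genes, and a pseudocount of 0.1 CPM added TXN (-1.02). GCLC joined the genes at least 2-fold higher in IVM against GV with TMM factors (1.03) and quantile normalization (1.17). In CNP_IVM against GV, 3 genes in place of 1 were higher with TMM factors and 3 with quantile normalization, and the median of the 10 genes moved from -1.24 to -0.20 with quantile normalization. In CNP_IVM against IVM, the 2 lower genes were 0 with a pseudocount of 5 CPM, 1 with TMM factors, 0 with quantile normalization and 2 to 4 when 1 library was left out (4 without CNP_IVM replicate 5). The cause was not tested for the scalings; a larger pseudocount shrinks low genes by construction.

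TMM factors moved the median of all genes from -0.28 to -0.05 in IVM against GV, from -0.61 to -0.16 in CNP_IVM against GV and from -0.28 to -0.06 in CNP_IVM against IVM, and the share of higher genes among those past 2-fold from 32.4 to 43.8%, from 26.8 to 43.2% and from 11.1 to 31.5%. With quantile normalization the shares were 52.3, 52.6 and 39.7%. The median of the 10 genes relative to that of all genes was -0.63, -0.63 and -0.52 as reported and -0.55, -0.58 and -0.50 with TMM factors. No paired analysis was possible because no result comes from a test and the replicate numbers only name oocytes. Few reads limit TXNRD2, and unnamed donors limit every comparison.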
